A study of Dugesia japonica with 4 samples.

Results

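Potassium channels of the voltage-gated and calcium-activated kind were followed in planarian heads that had regrown in barium chloride. The members were the 9 assembled transcript features whose deposited protein name was Shaker, Shaker cognate, Shaw, KvQLT or KQT-like, or alpha member 1 of the large conductance calcium-activated subfamily M. They were chosen by name, out of 15850 features in all, and lay on 6 assembled contigs. The worm was the freshwater flatworm Dugesia japonica, which regrows lost body parts, its head included. BaCl2 heads came from worms held for 35 days in 1 mM BaCl2, by which time heads insensitive to the salt had regrown and were cut off for RNA. Control heads came from wild type worms, for which the labels give neither an exposure nor a regrowth, so what barium did and what regrowing a head did cannot be told apart. Each group had 2 libraries, and per the labels each was a biological replicate that pooled 25 worms.

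Voltage-gated potassium channels open when the membrane depolarises and let potassium leave the cell, which ends action potentials and holds the membrane near its resting voltage. Their pore-forming subunits fall into families named after Drosophila genes, among them Shaker (Kv1), which gives fast transient currents, and Shaw (Kv3), whose mammalian members serve rapid firing. KCNQ or KQT channels (Kv7) open slowly near rest and damp excitability. Large conductance calcium-activated channels (BK) open with both depolarisation and internal calcium, and restrain transmitter release and muscle contraction. Barium ions block many potassium channels from within the pore.

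The libraries held between 3395478 and 8304636 recovered fragments, and the 9 members together took 161 and 343 fragments in the control libraries and 219 and 428 in the BaCl2 libraries. Levels are given as FPKM, the authors' fragments scaled by feature length and library depth, on the scale of their pooled table. A member's length decides what 1 fragment is worth. In BaCl2 replicate 1, the shallowest library, 1 fragment of the 1125 nt Shaker cognate feature was worth 0.063 FPKM, against 11.6 FPKM in the 120 nt BK feature. With 6 members under 300 nt, high FPKM in those members can rest on few fragments. Floors and the Wilson intervals on shares of fragments below cover counting error only, and PCR copies are not independent molecules. The limma intervals on log2 folds rest on the spread between libraries, with 2 libraries per group. Limma moves that spread toward a trend over all tested features, so an interval is not a member's own spread alone. In bulk RNA, fewer cells that express a channel and less RNA per cell cannot be told apart.

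**Figure D1:**
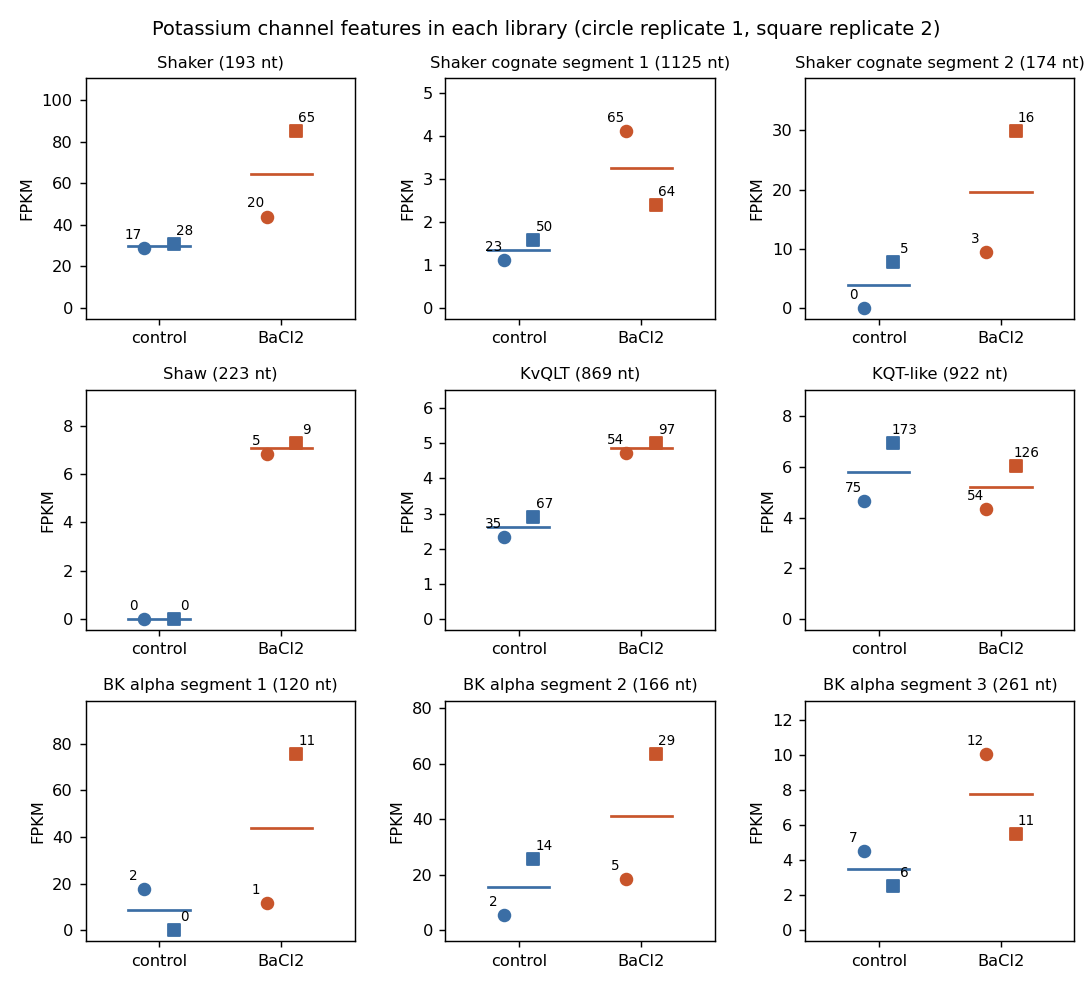
FPKM (vertical axis, from 0, a separate scale in each panel) of each potassium channel feature in the control and BaCl2 libraries, with replicate 1 as circles, replicate 2 as squares, the group mean as a line and the recovered fragments beside each point. Shaw was at 0 in both control libraries, and KQT-like is the longer feature whose groups overlap.

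Across the channels, levels in BaCl2 heads were mostly above those in control heads, but no member passed the test. In 6 of the 9 members both BaCl2 libraries lay above both control libraries (Shaker, both Shaker cognate features, Shaw, KvQLT and the third BK feature), and in 0 both lay below. Over all features tested the share with both BaCl2 libraries above was 21.5%, and with both below 27.4%. Log2 folds (BaCl2 over control, on log2(FPKM + 1)) were above 0 in 8 of 9 members, with a median of 1.02 and a range of -0.13 to 3.01, against 47.1% above 0 and a median of -0.06 over all features. All 9 reached the mean of 1 FPKM needed for testing, Shaw through its BaCl2 libraries alone. The BK features share 1 contig and the Shaker cognate features another, so these counts are not of separate channels. With features summed per contig, an alternative added after the values were seen, 5 of 6 log2 folds were above 0. Their median was 0.97, against -0.06 over all summed features, and KQT-like was the only contig whose groups overlapped.

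The test was a two-sided limma fit on log2(FPKM + 1) over 15683 features with Benjamini-Hochberg adjustment, and a call was an adjusted p under 0.05. It called 0.128% of all features, 0.0446% as higher and 0.0829% as lower, and 0 of the 9 members, whose adjusted p ran from 0.148 to 0.886. At unadjusted p under 0.05 it had 1 member, Shaw, against 11.3% of all features. The 20 features called over the whole table became 0 when any 1 library was left out, where 1048 to 2407 features had an unadjusted p under 0.05. A median or count over members that were picked with earlier results known carries no p of its own.

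The 4 members with at least 100 fragments over the 4 libraries (Shaker, the first Shaker cognate feature, KvQLT and KQT-like) were also read against features of that depth only. There, 3 of the 4 had both BaCl2 libraries above both control libraries, against 19% of the 7982 such features, and 0 had both below, against 36.3%. Their median log2 fold was 0.77, against -0.15 for those features. Limma on these features called 1.42% of them (0.2% as higher, 1.22% as lower) and 0 of the 4 members, the lowest adjusted p being 0.221, and had 3 of the 4 at unadjusted p under 0.05 against 18.9%.

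Shaker, the Kv1 channel that gives its family the name, had the highest mean FPKM of the members in both groups. That rank rests on an effective length of only 26.4 nt, and without scaling by length Shaker (2.88, 3.37, 5.89 and 9.45 CPM in control replicates 1 and 2 and BaCl2 replicates 1 and 2) lay below KQT-like and KvQLT in every library. Its feature TCONS_00002715 covers 193 nt, from position 1 to 193 of its contig, and was named after a liver fluke (Clonorchis sinensis) protein. It had 28.7 and 30.7 FPKM in the control libraries and 44.0 and 84.9 FPKM in the BaCl2 libraries, from 17, 28, 20 and 65 fragments. The control libraries were close together and both BaCl2 libraries lay above them, replicate 2 with the highest level of any member in any library. The means were 29.7 ± 1.43 and 64.5 ± 28.9 FPKM (SD, n = 2 each), a ratio of 2.17. On the log2 scale the fold was 1.02 (SE 0.44, 95% interval -0.27 to 2.30, limma adjusted p = 0.487). It was 0.55 without BaCl2 replicate 2 and 1.48 without BaCl2 replicate 1.

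The Shaker cognate name, taken from a tapeworm (Taenia saginata) protein, stood on a pair of features of the same contig. The longer, TCONS_00007478 (positions 302 to 1426), had 1.11 and 1.57 FPKM in the control libraries against 4.10 and 2.39 FPKM with BaCl2, from 23, 50, 65 and 64 fragments. Here BaCl2 replicate 1 was the highest library, where for Shaker it was replicate 2. The means were 1.34 ± 0.325 and 3.24 ± 1.2 FPKM, a ratio of 2.42 (log2 fold 0.84, SE 0.41, 95% interval -0.35 to 2.02, limma adjusted p = 0.511), and the fold was 0.54 without BaCl2 replicate 1. The shorter, TCONS_00007479 (positions 2169 to 2342), had 0 and 7.82 FPKM in the control libraries against 9.41 and 29.8 FPKM with BaCl2, from 0, 5, 3 and 16 fragments. Its control libraries differed by more than control replicate 2 differed from BaCl2 replicate 1, so the size of its log2 fold (2.59, SE 1.34, adjusted p = 0.527) is loosely set. Without control replicate 1 that fold was 1.02, and without control replicate 2 it was 4.16.

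With both Shaker cognate features summed, an alternative added after the values were seen, levels were 1.09 and 1.69 FPKM in the control libraries against 4.20 and 2.93 FPKM with BaCl2. The groups did not overlap and the log2 fold was 0.93 (SE 0.38, 95% interval -0.18 to 2.04, limma adjusted p = 0.459).

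Shaw, the Kv3 member, was the only member with no fragment in either control library. Its feature TCONS_00008343 (223 nt, positions 969 to 1191), named after a tapeworm (Schistocephalus solidus) protein, had 0 and 0 FPKM in the control libraries against 6.83 and 7.30 FPKM with BaCl2. These levels rest on 5 and 9 fragments. A floor of 3 fragments per control library stood at a mean of 2.59 FPKM. The BaCl2 mean of 7.07 ± 0.329 FPKM was 2.72 times that floor. It was 2.63 times with BaCl2 replicate 1 alone and 2.81 times with BaCl2 replicate 2 alone. These are not strict lower bounds, because they leave out counting error on the 5 and 9 fragments, which is wider than that SD. Limma gave an adjusted p of 0.148, the lowest among the members, with an unadjusted p of 0.00148. Over the alternatives run its adjusted p ran from 0.136 to 0.421. Its fitted log2 fold of 3.01 depends on the pseudocount, being 6.16 with 0.1 FPKM and 1.27 with 5 FPKM in place of 1 FPKM.

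In the authors' deposited table, their own comparison gave Shaw a q-value of 0.02, the only member under 0.05 there, against 3.43% of the 15850 features. Its direction cannot be read there, because that table lists 7.07 FPKM under control and leaves BaCl2 blank, while the replicate tables list both control libraries at 0. The other 8 members had q-values from 0.195 to 0.856 in the authors' deposited table. Its smallest p-values beside Shaw (0.00035) were 0.0156 for the longer Shaker cognate feature and 0.0464 for KvQLT.

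**Figure D2:**
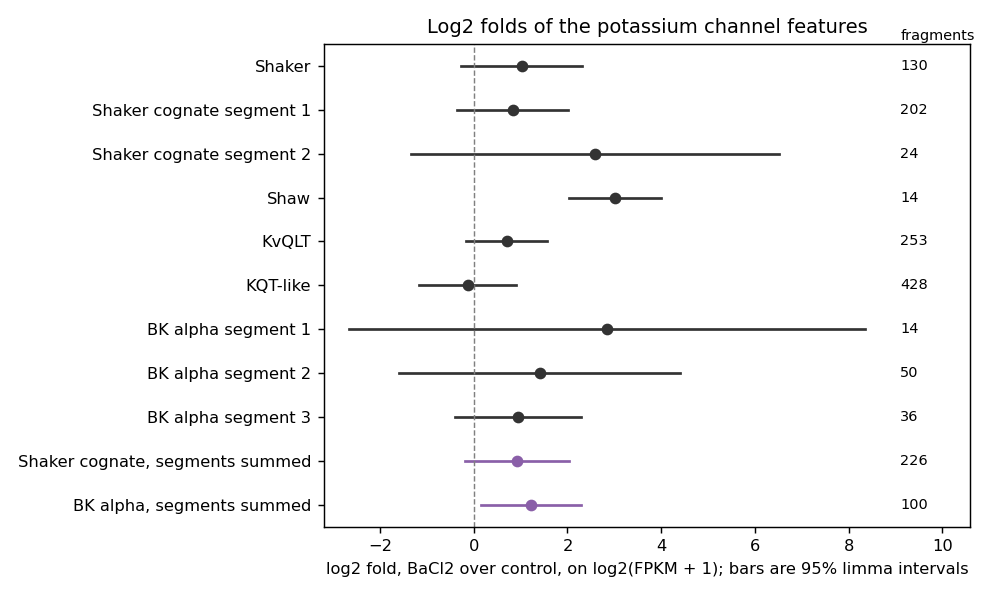
Log2 fold of BaCl2 over control on log2(FPKM + 1) for each potassium channel feature (black) and for the Shaker cognate and BK features summed per contig (purple), with 95% limma intervals before adjustment and the fragments over the 4 libraries at the right. Intervals are widest for features of 14 to 50 fragments, except Shaw, whose control libraries are both at 0, and 0 of the 9 members passed after adjustment.

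The Kv7 channels gave unlike values, although the difference between their folds was not tested. KvQLT family member kqt 1 (TCONS_00004922, 869 nt, positions 2018 to 2886; the name comes from the tapeworm Taenia asiatica) had 2.34 and 2.91 FPKM in the control libraries against 4.71 and 5.02 FPKM with BaCl2, from 35, 67, 54 and 97 fragments. Both groups were tight and did not overlap, and the 4 differences between a BaCl2 and a control library ran from 0.54 to 0.85 on the log2 scale. The means were 2.63 ± 0.404 and 4.86 ± 0.219 FPKM, a ratio of 1.85, and the log2 fold was 0.70 (SE 0.30, 95% interval -0.17 to 1.56, limma adjusted p = 0.481).

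The KQT-like feature (TCONS_00003098, 922 nt, positions 195 to 1116), named after a liver fluke protein, held the most fragments of any member. It had 4.65 and 6.97 FPKM in the control libraries against 4.36 and 6.04 FPKM with BaCl2, from 75, 173, 54 and 126 fragments. Replicate 2 was higher than replicate 1 in both groups and the groups overlapped. The means were 5.81 ± 1.64 and 5.20 ± 1.19 FPKM, with a log2 fold of -0.13 (SE 0.35, 95% interval -1.16 to 0.90, limma adjusted p = 0.886). That interval is wide enough to include the fold of KvQLT.

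Because both Kv7 features were read in the same libraries, their ratio does not depend on the scaling between libraries. KvQLT over KQT-like, in FPKM, was 0.504 and 0.418 in the control libraries and 1.08 and 0.831 in the BaCl2 libraries. The KvQLT level was thus about equal to that of KQT-like in BaCl2 heads and clearly below it in control heads, with no overlap between groups. This ratio was picked after the values were seen and was not tested. In the same way KQT-like took 46.6% (95% Wilson interval 39 to 54.3) and 50.4% (45.2 to 55.7) of all member fragments in the control libraries. In the BaCl2 libraries its share was 24.7% (19.4 to 30.8) and 29.4% (25.3 to 33.9), so the other 8 members made up more of the potassium channel fragments there. This share restates the folds of the members and was not tested between groups. Its intervals cover counting within a library and not the spread between libraries.

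The BK channel alpha subunit, which forms the calcium-activated pore, was spread over 3 features of 1 contig, all named after the same liver fluke protein. TCONS_00009369 (120 nt, positions 1618 to 1737) had 17.8 and 0 FPKM in the control libraries against 11.6 and 75.7 FPKM with BaCl2, from only 2, 0, 1 and 11 fragments. TCONS_00009370 (166 nt, positions 3131 to 3296) had 5.67 and 25.8 FPKM in the control libraries against 18.5 and 63.6 FPKM with BaCl2, from 2, 14, 5 and 29 fragments. In both of these the groups overlapped, and BaCl2 replicate 2 was the highest library.

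The third BK feature, TCONS_00009371 (261 nt, positions 3400 to 3660), had 4.52 and 2.52 FPKM in the control libraries against 10.1 and 5.49 FPKM with BaCl2, from 7, 6, 12 and 11 fragments. Its groups did not overlap, with BaCl2 replicate 1 the highest library. Log2 folds of the 3 features in order of position were 2.84 (SE 1.88), 1.41 (SE 1.03) and 0.95 (SE 0.46), with limma adjusted p of 0.584, 0.606 and 0.512. These sizes rest on single libraries. The first ran from 0.73 without control replicate 2 to 4.96 without control replicate 1, and was 1.54 without BaCl2 replicate 2. The second ran from 0.40 without control replicate 1 to 2.41 without control replicate 2, and was 0.54 and 2.27 without BaCl2 replicates 2 and 1. The third was 0.56 without BaCl2 replicate 1 and 0.62 without control replicate 2.

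Summed over its 3 features, the BK subunit had 5.46 and 6.45 FPKM in the control libraries against 11.6 and 19.6 FPKM with BaCl2, from 11, 20, 18 and 51 fragments. The summed groups did not overlap, and the control libraries were closer to each other than in any of the 3 features alone. The means were 5.96 ± 0.702 and 15.6 ± 5.61 FPKM, a ratio of 2.62, with a log2 fold of 1.22 (SE 0.36, 95% interval 0.16 to 2.28 before adjustment). It did not pass after limma adjustment over all summed features (adjusted p = 0.407). The 3 features share a contig and a name, so they are readings of 1 transcript model and not separate channels.

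Taken per contig, the order of mean levels in control heads was Shaker at 29.7 ± 1.43 FPKM, BK at 5.96 ± 0.702, KQT-like at 5.81 ± 1.64, KvQLT at 2.63 ± 0.404 and Shaker cognate at 1.39 ± 0.427, with Shaw at 0. BK and KQT-like did not differ beyond their spread in FPKM. Shaker's place above the rest holds in FPKM only, as given above, and so does the place of BK. Before scaling by length BK took 11 and 20 fragments in the control libraries, against 75 and 173 for KQT-like. In BaCl2 heads the order was Shaker at 64.5 ± 28.9 FPKM, BK at 15.6 ± 5.61, Shaw at 7.07 ± 0.329, KQT-like at 5.20 ± 1.19, KvQLT at 4.86 ± 0.219 and Shaker cognate at 3.57 ± 0.897. KQT-like and KvQLT, adjacent in that order, did not differ beyond their spread there. Shaw's place above them also holds in FPKM only. It took 5 and 9 fragments in the BaCl2 libraries, against 54 and 126 for KQT-like and 54 and 97 for KvQLT. Except for Shaker and, in BaCl2 heads, BK, these contigs lay below 13 FPKM, the median of the mean level of a tested feature.

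The direction was the same without scaling by length. In CPM, recovered fragments scaled by library total without the length, the 9 members summed to 27.3 and 41.3 in control against 64.5 and 62.2 in BaCl2 libraries, and 6 members again had both BaCl2 libraries above both control libraries, against 28.7% of all features on that scale. In FPKM the sums were 64.8 and 78.3 in control against 114 and 280 in BaCl2 libraries, a ratio of means of 2.75, which was 1.59 without BaCl2 replicate 2 and 3.92 without BaCl2 replicate 1. The high FPKM sum of BaCl2 replicate 2 comes mostly from short features, Shaker and the first and second BK features. Limma voom on the fragments, which called 2.47% of features, called 0 members, with adjusted p of 0.19 to 0.957 and 4 members at unadjusted p under 0.05 against 15.3%.

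**Figure D3:**
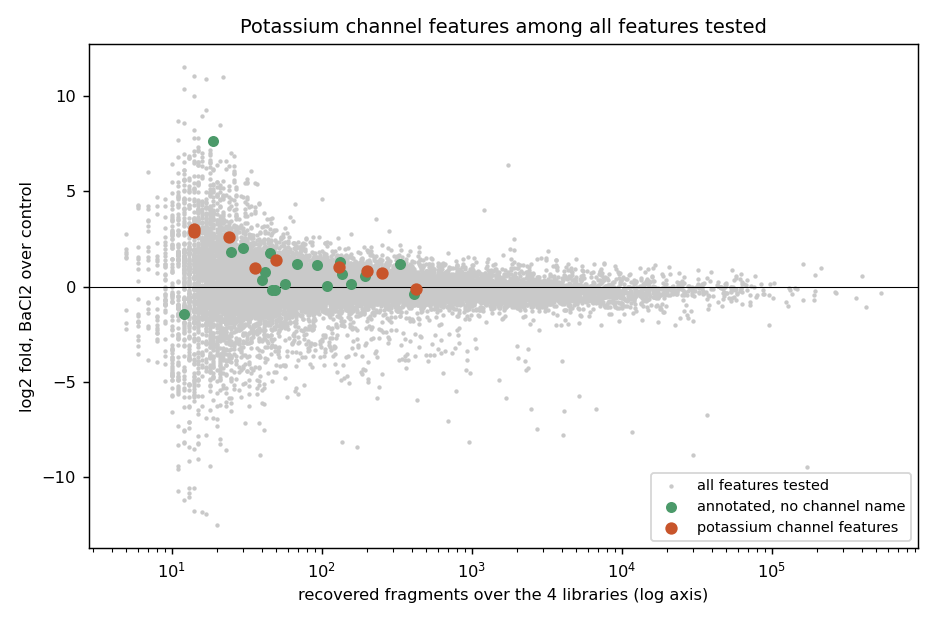
Log2 fold of BaCl2 over control (vertical axis) against recovered fragments over the 4 libraries (horizontal, log axis) for all tested features (grey), the potassium channel features (orange) and features annotated with potassium channel activity but without a channel name (green). Members with 14 to 50 fragments sit where folds of all features are widely scattered, and those with 130 to 428 fragments lie between -0.13 and 1.02.

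Some features without a channel name carried a potassium channel annotation, which was not checked against a sequence. Outside the members, 20 features on 15 contigs carried the deposited gene ontology term for potassium channel activity under the name uncharacterized protein or SJCHGC04580 protein. This list was drawn up after its values were seen. Of the 20, 0 passed in either direction, 16 had log2 folds above 0, against 47.1% of all features. In 10 both BaCl2 libraries lay above both control libraries and in 1 both lay below, against 21.5% and 27.4% of all features. Their median log2 fold was 0.73, and they summed to 52.7 and 80.2 CPM in control against 114 and 122 CPM in BaCl2 libraries.

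Among them TCONS_00002771 (742 nt) had 2.40 and 4.24 FPKM in the control libraries against 7.54 and 9.78 FPKM with BaCl2, from 331 fragments in all (log2 fold 1.18, SE 0.37, limma adjusted p = 0.433). A 90 nt feature of the same contig, TCONS_00002772, had 0 fragments in each control library, 15 in BaCl2 replicate 1 and 4 in BaCl2 replicate 2. Its BaCl2 mean was 4.57 times a floor of 3 fragments per control library (limma adjusted p = 0.212). Without BaCl2 replicate 1 that was 1.25 times, and neither value takes in counting error on the BaCl2 side. TCONS_00005109 had 0.995 and 1.08 FPKM in the control libraries against 6.05 and 5.90 FPKM with BaCl2 from 45 fragments (log2 fold 1.78, SE 0.30, adjusted p = 0.30). Not every such feature leaned that way. TCONS_00007281 had 9.57 and 9.81 FPKM in the control libraries against 5.27 and 9.47 FPKM with BaCl2, and TCONS_00007220 had a log2 fold of 0.01.

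Channels and transporters that work beside these channels were read from lists matched on the deposited names. The small conductance calcium-activated channel, opened by calcium through calmodulin, is a potassium channel outside the naming rule. Its feature TCONS_00006111 had 1.38 and 4.16 FPKM in the control libraries against 5.90 and 7.58 FPKM with BaCl2, without overlap (log2 fold 1.13, SE 0.51, limma adjusted p = 0.498). The Slc12 family, which carries chloride with potassium or sodium, had smaller folds. Slc12a-1 features had log2 folds of -0.09 and -0.35, both with overlap, and Slc12a-2 had 0.30, with limma adjusted p of 0.642 to 0.901. Slc12a-2 had 4.76 and 4.44 FPKM in the control libraries against 5.91 and 5.88 FPKM with BaCl2, without overlap.

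For the Na+/K+-ATPase, which builds the potassium gradient, the beta-2 subunit features had log2 folds of 0.14 and 0.60 and 0 of 2 passed. The groups overlapped in the first. The second had 4.79 and 5.19 FPKM in the control libraries against 7.80 and 8.41 FPKM with BaCl2, without overlap. The hyperpolarization-activated cyclic nucleotide-gated channel 4 feature (0.56) and a cyclic nucleotide gated cation channel (-0.21) did not pass either. Protein quiver, which in Drosophila promotes Shaker currents, had 3.26 and 5.29 FPKM in the control libraries against 5.57 and 6.77 FPKM with BaCl2 (log2 fold 0.47, SE 0.35, limma adjusted p = 0.609).

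Calcium and sodium channels, which supply the depolarisation and calcium that open these channels, had 0 of 13 features called, where 0.128% of all features were. Of the 13, which lay on 7 contigs, 11 had log2 folds above 0, against 47.1% of all features, with a median of 0.87. The name match also took amiloride-sensitive channels, which are not voltage-gated. The highest FPKM stood on a pair of calcium channel alpha-2/delta-1 subunit features. TCONS_00002636 covers only 43 nt and held 15 fragments (log2 fold 7.18, SE 3.29, limma adjusted p = 0.50). TCONS_00002638 (1701 nt, 21725 fragments) had 146 and 131 FPKM in the control libraries against 107 and 168 FPKM with BaCl2, with overlap and a log2 fold of -0.04. Calmodulin and other calcium sensors, which confer calcium sensitivity on several channels, had 0 of 15 called and a median of 0.42. Their log2 folds ranged from -1.92 to 2.18, with 11 above 0 and 4 below. In 7 both BaCl2 libraries lay above both control libraries and in 4 both lay below, against 21.5% and 27.4% of all features. The features named next had the highest mean FPKM of the list. Calmodulin-related TCONS_00003725 had a log2 fold of 2.06 from 26 fragments (SE 0.32, limma adjusted p = 0.272). Its high FPKM rests on an effective length of only 1.11 nt. The neuronal calcium sensor TCONS_00010907 had 201 and 173 FPKM in the control libraries against 204 and 305 FPKM with BaCl2 (log2 fold 0.42, limma adjusted p = 0.643).

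**Figure D4:**
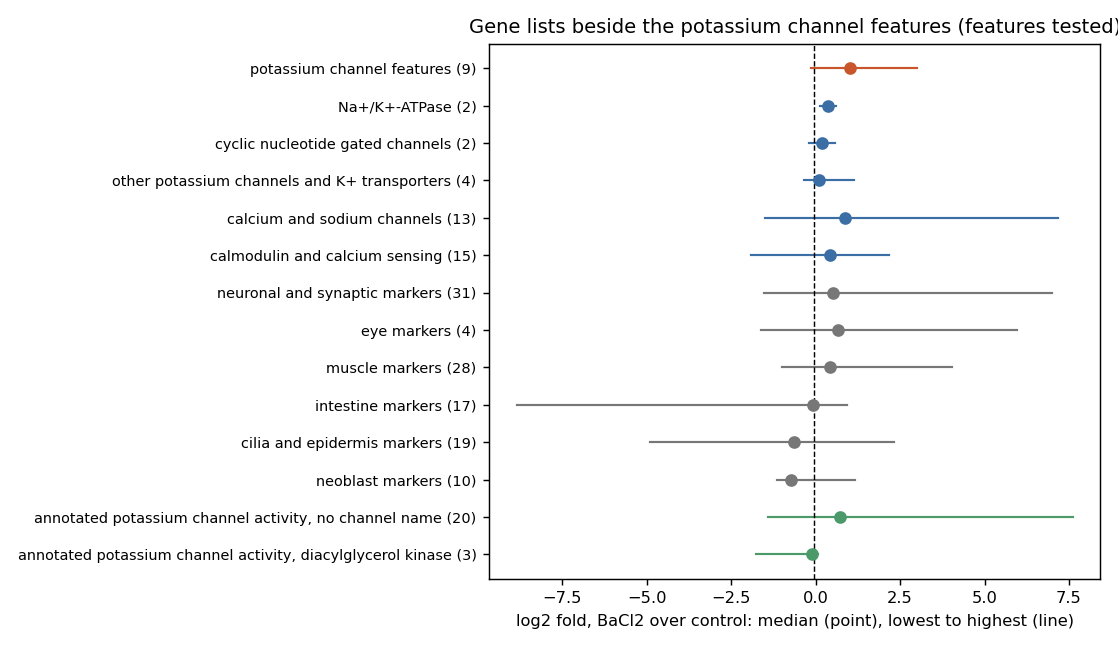
Median log2 fold of BaCl2 over control (points) with the lowest and highest member (lines) for the potassium channel features, for other ion channel and transporter lists and for cell type markers, with the number of tested features in brackets. The dashed line is the median of all tested features, -0.06, and the potassium channel median is 1.02.

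Markers of excitable cells mostly had log2 folds above 0 as well, though 0 of them passed. Of 31 neuronal and synaptic features on 24 contigs, 26 had log2 folds above 0, against 47.1% of all features, with a median of 0.51. In 15 both BaCl2 libraries lay above both control libraries and in 3 both lay below, against 21.5% and 27.4% of all features. They summed to 249 and 341 CPM in control against 508 and 483 CPM in BaCl2 libraries, and 0 of the 31 were at 0 in both libraries of a group. Of 28 muscle features on 13 contigs, 23 were above 0, with a median of 0.43, and 17 lay apart above and 1 below. Their sums were 10400 and 9660 CPM in control against 15824 and 16825 CPM in BaCl2 libraries. Of the 28, 1 was at 0 in both control libraries. Features that share a contig are not independent members of a list. The neuronal features with the highest mean FPKM, neuropeptide-18 and neuropeptide Y prohormone-4, had log2 folds of 1.11 and 6.99, from 191 and 25 fragments. That rank rests on effective lengths of only 1.65 and 0.283 nt. The muscle features with the highest mean FPKM, a pair of tropomyosins, both had 0.35. The part of nerve and muscle content in the potassium channel levels was not tested.

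Other marker lists gave other values. Cilia and epidermis markers had 15 of 19 features below 0 (median -0.64) and neoblast markers 7 of 10 (median -0.72), while intestine markers had a median of -0.07 and a range of -8.84 to 0.93. The lowest was ferritin, an iron store (TCONS_00005540), with 1779 and 1675 FPKM in the control libraries against 5.34 and 1.24 FPKM with BaCl2 (limma adjusted p = 0.087). The intestine sums were 4519 and 4553 CPM in control against 2959 and 3148 CPM in BaCl2 libraries. Ferritin alone held 12165 and 17626 fragments in the control libraries and 28 and 11 in the BaCl2 libraries, and the lower sums come from it. Of the 17 intestine features, 8 had log2 folds above 0 and 9 below. For eyes, 4 beta arrestin features on 2 contigs were found, with a median of 0.65 and a range of -1.62 to 5.96. In 3 of these 4 both BaCl2 libraries lay above both control libraries and in 1 both lay below, against 21.5% and 27.4% of all features. The highest, TCONS_00000216, covers only 82 nt and held 26 fragments. No feature matched opsin or tryptophan hydroxylase by name. Limma called 0 features in each of these marker lists.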

How the data were processed

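The authors deposited FPKM per feature in 3 tables, per the file headers: 1 with replicates pooled and 2 with 1 control and 1 BaCl2 library each, scaled apart. A log2 fold change, a p-value and a q-value of the authors' own comparison stand beside them, per the file headers. Tools named in the submitters' processing notes, with no role, are Cufflinks 2.2.1, Cuffdiff, TopHat2 2.0.13, TopHat and Bowtie. Per the labels' protocols the libraries were poly(A) TruSeq. Genome build and strand of counting are not given in the sources used here. Loci are contigs, given 1-based. The design text also names starved worms and 3 replicates per treatment. The deposited values cover only the 4 libraries used here, 2 per group. For the control heads the labels give no feeding, so whether starvation applies to them cannot be told.

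Library values were put on 1 scale with the weights that give the pooled value (within 0.1% in 15203 of 15204 features per group). For Shaw the pooled table leaves BaCl2 blank and has the BaCl2 mean in the control column, so replicate tables were used. Where a replicate table lacked a feature, its level was solved from the pooled table (752 values, 61 above 0). Fragments were recovered from FPKM assuming fragments of 28 to 440 nt with a mean of 200 nt and an SD of 80 nt, and at least 99.6568% of checked values per library were whole within 0.1 fragments.

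The fit was limma 3.58.1 in R 4.3.3, with eBayes and its mean trend, on log2(FPKM + 1) of features averaging at least 1 FPKM. It had no replicate block, leaving 2 residual degrees of freedom. It was tested on simulated data with large folds and features of at least 100 fragments only, so that test does not cover members with fewer fragments. Alternatives were other pseudocounts, filters and scalings, voom, a replicate block, each library left out and features summed per contig. Members, lists and tests were chosen with earlier results of these data known. Named features were the 9 members, those past the threshold or else the 2 most abundant in each channel, calcium, neuronal and muscle list, and the 3 features most like the member with most fragments. The annotated features without a channel name, quiver, ferritin, Slc12a-2, SK (the small conductance channel) and the diacylglycerol kinases lie outside this rule and were chosen after their values were seen.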

Additional observations from a re-analysis of the deposited data

How the results depend on the processing

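No member passed under any alternative. With all features, 20 were called, against 113 with at least 100 fragments, 388 with voom on recovered fragments, 164 with the replicate tables as deposited, 0 with a pseudocount of 5 FPKM (1876 at unadjusted p under 0.05) and 0 without any 1 library (range 0 to 0). With a replicate block 0 were called, 1575 being at unadjusted p under 0.05. Same-numbered libraries deviated together at a correlation of 0.0244 over all tested features and 0.145 over those with at least 100 fragments, and nothing in the labels makes the number a shared batch. The block did not call any member (lowest adjusted p = 0.421). The median log2 fold of the members was 1.02, ran from 0.97 to 1.48 with 1 library left out, highest without BaCl2 replicate 1, and was 0.77 with the 4 members of at least 100 fragments. The summed FPKM ratio of 2.75 ran from 1.59 without BaCl2 replicate 2 to 3.92 without BaCl2 replicate 1, and was 1.85 in CPM. Of 109 single-member values, 107 kept direction and side of the threshold. KQT-like ran from -0.38 to 0.12 on the log2 scale with 1 library left out, against -0.13, being 0.07 without BaCl2 replicate 1 and 0.12 without control replicate 2, and the cause was not tested. With 14 to 50 fragments in 5 of the members, counting error limits every statement on them, and with 2 libraries per group 3 libraries leave 1 residual degree of freedom, the lone library being assumed to vary like the others.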

Other observations

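Over the 4 libraries, the named features with at least 100 fragments whose pattern lay nearest to that of KQT-like, out of 2789, were leucine-rich repeat-containing protein 47 (distance 0.064 on the log2 scale), a putative prolyl 4-hydroxylase alpha subunit (0.067) and a hypothetical Schistosoma protein of family UPF0506 (0.108). The last had 24.9 and 34.4 FPKM in the control libraries against 22.0 and 28.2 FPKM with BaCl2. With 4 libraries this likeness is a description only. The term for potassium channel activity also stood on 3 features named diacylglycerol kinase, of 1 contig. The longest (TCONS_00005082, 2160 nt) had 12.5 and 12.4 FPKM in the control libraries against 12 and 14.3 FPKM with BaCl2.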
